A study of Mus musculus with 78 samples.

Results

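The genes described are 42 mouse genes of DNA replication and cell division, chosen by symbol for their known roles. They comprise replication licensing and fork genes, genes of nucleotide supply, cyclins and their kinase, cell cycle transcription factors, and genes of mitosis. All 42 were found among the 36904 gene IDs of the table, and all 42 passed the filter on low counts, also when the libraries set apart below were left out. The filter was applied over all groups together, so a gene could pass through libraries of groups other than those compared. With only the compared groups, 29 of the 42 were tested for 28 against 6 months in males. The number was 33 for 20 against 6 months in males and 41 for 28 against 6 months in females. They were measured by bulk RNA sequencing of soleus, a slow postural muscle of the hindlimb, in C57Bl/6 mice.

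In batch 1, females on control feed numbered 4 at 6 months, 6 at 12 months, 6 at 20 months and 6 at 28 months. Males on control feed in batch 1 numbered 6 at 6 months, 6 at 12 months, 9 at 20 months and 5 at 28 months. Batch 2 held 12 males given feed with 2% CaAKG (calcium alpha-ketoglutarate), 10 control males and 7 control females, all at 28 months. Ages of batch 2 were taken from the code M28, understood here as months. Mice of 6 and 12 months came from one supplier and mice of 20 months from another, so age and supplier cannot be told apart between those ages. The supplier of the 28-month mice is not given in the sources used here, so the same limit may touch every comparison with that age. Ages were compared within batch 1, and feed within batch 2.

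A cell that is about to divide first loads the MCM helicase onto its DNA with the help of Cdc6 and Cdt1, and then activates it with Cdc45 and the GINS complex. Ribonucleotide reductase and thymidine kinase supply nucleotides, and Pcna is the sliding clamp that holds polymerases on the template. Cyclins with Cdk1 then drive the cell into mitosis, where Aurora and Polo kinases, centromere proteins and motors align and part the chromosomes, and the anaphase-promoting complex, served by Cdc20 and Ube2c, ends the phase. The nuclei of muscle fibres do not divide, so in resting adult muscle dividing cells are few and lie among the other cells of the tissue. Blood-forming cells of bone marrow and the basal keratinocytes of skin divide throughout life.

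Levels are given as counts per 1000000 counts of the library (CPM), computed with a scaling factor for each library. Outside the libraries set apart below, most of the 42 genes were scarce, and 24 of them had a median under 1 CPM. Pcna, which also serves DNA repair, had the highest level per transcript length at 15.3 CPM per kb, and Rrm1, the large subunit of ribonucleotide reductase, followed at 3.59 CPM per kb. Mcm7 had 2.77 CPM per kb and Mcm6 1.7 CPM per kb, both being subunits of the helicase. The proliferation marker Mki67 had a median of 0.0419 CPM per kb and Top2a, the topoisomerase that untangles sister chromosomes, 0.0519 CPM per kb. Bub1, a kinase of the spindle checkpoint, was listed at 0 in 36 of the 77 replicates, whereas 17 genes had counts in every one. Replicates held 19.5 to 112 times 1000000 counts (median 35.2), and at that depth a gene such as Ccnb1, the mitotic cyclin, rested on a median of 3 counts, so levels of the scarce mitotic genes are imprecise.

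Some libraries held transcripts of other tissues, and the 42 genes stood high in several of them. Sums over marker genes, and the sums over the 42 genes beside them, are in CPM of the library total, with no scaling factor. In 4 libraries the summed level of 14 neutrophil granule genes passed 100 CPM. These were replicate 10 (1617 CPM) and replicate 12 (543 CPM) of the 28-month females of batch 1, and replicate 7 (932 CPM) and replicate 6 (238 CPM) of the CaAKG males. Genes of red cell precursors were also present there, at 511 CPM in replicate 10 and 87.2 CPM in replicate 12 of the females, and at 231 CPM in replicate 7 and 26 CPM in replicate 6 of the CaAKG males. Markers of B cell precursors were uneven, at 126 CPM in replicate 10 but 0.705 CPM in replicate 12 of the females. In the CaAKG males they had 23.3 CPM in replicate 7 and 3.97 CPM in replicate 6. These 4 libraries are called marrow-rich. In 5 further libraries the summed level of 12 keratinocyte genes passed 100 CPM: replicate 8 of the 28-month females of batch 1 (11055 CPM), replicate 8 (6201 CPM) and replicate 10 (806 CPM) of the CaAKG males, replicate 4 of the batch 2 control males (670.1 CPM), and replicate 5 of the 12-month females (3832 CPM). These are called skin-rich. The limits were applied after the libraries of 1 animal tag were summed. Replicate 6 of the 12-month females, such a sum, had 53.5 CPM of keratinocyte genes and is not called skin-rich. The library labelled replicate 6 had 176 CPM by itself. Smaller sums of blood cell markers were present in libraries under these limits. Among the 28-month females of batch 1, replicate 9 had 62.9 CPM of neutrophil granule genes, and replicate 11 had 37.1 CPM of B cell precursor genes and 14.3 CPM of T cell genes, the highest T cell sum of all 77. The slow muscle genes had 12637 to 48045 CPM. The lowest was replicate 4 of the 12-month females, where mitochondrial genes took 46.5% of counts. In 5 libraries, sex-linked transcripts went against the sex label: replicates 1 and 4 of the 12-month females, replicate 3 of the 6-month females, and replicate 3 of the males at both 6 and 12 months.

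The unscaled summed level of the 42 genes ranged from 39.3 to 159 CPM, with a median of 108 CPM, in the 68 replicates that were neither marrow- nor skin-rich. The 39.3 CPM was that of the library with 46.5% mitochondrial counts. The 6 replicates above 159 CPM were all among the 9 rich ones, and with scaling factors they were again the 6 highest, at 175 to 617 CPM, above 171 CPM in replicate 1 of the 6-month males. Replicate 10 of the 28-month females had 736 CPM, replicate 7 of the CaAKG males 388 CPM, replicate 8 of the 28-month females 316 CPM, replicate 12 of the same group 236 CPM, replicate 5 of the 12-month females 235 CPM and replicate 8 of the CaAKG males 211 CPM. The other 3 rich libraries had between 112 and 142 CPM. In the 28-month females of batch 1 the neutrophil granule sum had a median of 34.2 CPM, against 1.05 CPM at 20 months and 1.03 CPM at 6 months, where 3 of the 14 genes were at 0 in every library. The keratinocyte sum had medians of 14.4 CPM at 28 months, 11.2 CPM at 20 months and 7.61 CPM at 6 months in those females. In bulk tissue, fewer cells of a type and less RNA per cell cannot be told apart.

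**Figure D1:**
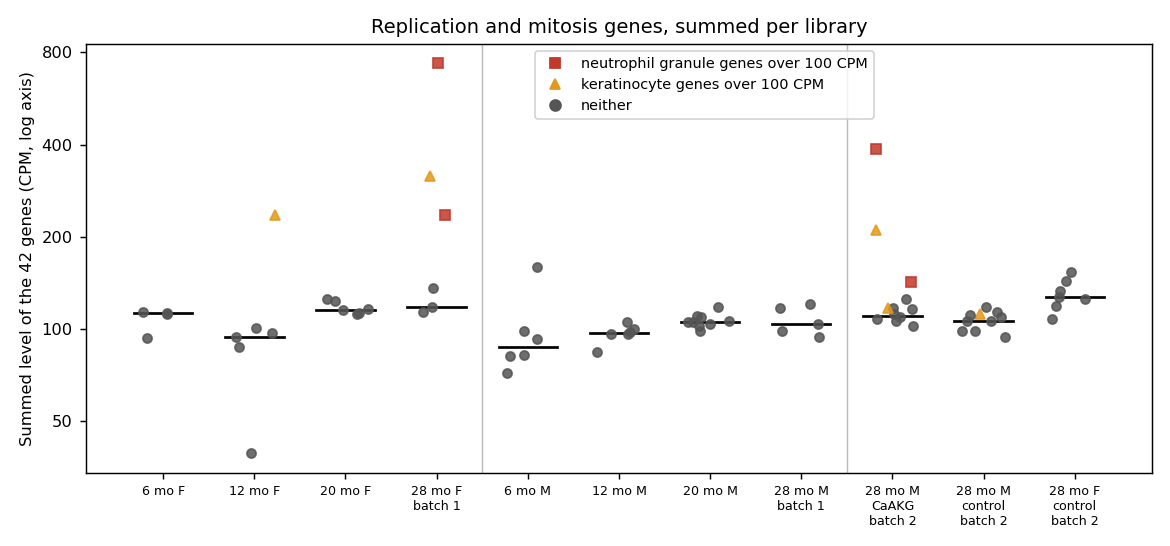
Summed level of the 42 genes in each of the 77 replicates, in CPM of the library total (no scaling factor) on a log axis, by group; each point is 1 replicate and the bar is the median of the replicates that are neither marrow- nor skin-rich. The 6 points above 159 CPM are marrow-rich (squares) or skin-rich (triangles), led by 736 CPM in 1 library of the 28-month females of batch 1.

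Each rich library was set against the median of the other libraries of its group, 3 libraries for the 28-month females and 8 for the CaAKG males. In replicate 10 of the females, 41 of the 42 genes were above all 3 other libraries, with a median of 12-fold over the 41 genes that had a ratio, the others' median being 0 for 1 gene. The proliferation marker Mki67 had 69.9 CPM there, against 0.103, 0.265 and 2.42 CPM in the other 3 (4, 15 and 99 counts). Top2a had 32.2 CPM, against 0.0259, 0.0531 and 1.91 CPM (1, 3 and 78 counts), so ratios for these genes depend on which library is taken. The helicase subunit Mcm5 had 19 CPM against 1.06 CPM, a ratio of 17.9, while Pcna had 44.9 CPM against 24.3 CPM, a ratio of 1.85. The 4 fork genes (Cdc45, Gins1, Gins2 and Pcna) had a median ratio of 1.78, against 42.4 for the 6 genes of mitotic kinases and checkpoints. In replicate 12 of the females 36 genes were above the other 3 libraries, with a median of 3.95-fold, and in the skin-rich replicate 8 likewise 36, with a median of 3.2-fold. In replicate 7 of the CaAKG males, 38 genes were above all 8 other libraries, with a median of 5.44-fold over the 40 genes with a ratio. The skin-rich replicate 8 of that group had 33 genes above them, with a median of 2.62-fold. The skin-rich replicate 5 of the 12-month females had 34 genes above the other 5 libraries, with a median of 4.01-fold over the 35 genes with a ratio.

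**Figure D2:**
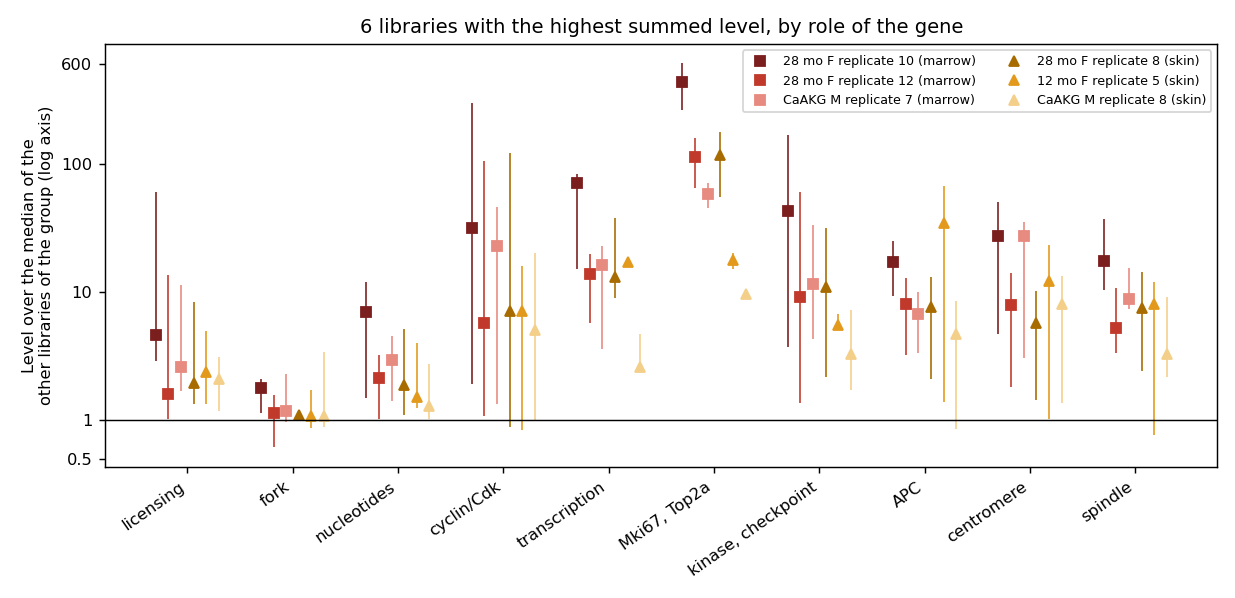
Level in each of 6 marrow- or skin-rich libraries over the median of the other libraries of its group, on a log axis, by role of the gene; points are medians over the genes of a role and lines run from the lowest to the highest gene. Medians of the fork genes run from 1.08 to 1.78 in the 6 libraries, with single fork genes from 0.615 to 3.43. Mki67 and Top2a lie highest in replicate 10 of the 28-month females, at 263 and 606 over medians that rest on 15 and 3 counts.

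In the comparison of 28 with 6 months in females, 21 of the 42 genes rose and 0 fell (edgeR quasi-likelihood test, adjusted p under 0.05 over all 18218 genes), beside 9.91% of all genes higher and 9.04% lower. The median log2 fold change of the 42 was 1.80, against 0.09 over all genes tested, and 41 of 42 were above 0. Replication licensing led by count, with 7 of 8 genes up: Mcm2, Mcm3, Mcm4, Mcm5, Mcm6, Mcm7 and Cdt1. Of the nucleotide genes Rrm2 and Tk1 rose, of the cyclins and their kinase Ccna2, Ccnb2 and Cdk1, and of the transcription factors Mybl2. Both Mki67 and Top2a rose, as did Cdc20, the centromere genes Cenpe and Cenpf, and the spindle genes Kif11, Tpx2 and Nusap1. Of the 4 fork genes and the 6 genes of mitotic kinases and checkpoints, 0 passed in edgeR, with an unadjusted p under 0.05 in 0 of the 4 and in 4 of the 6. DESeq2 called 26 of the 42 genes higher, beside 14.3% of all genes.

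Mcm6 had 7.48 CPM in the lowest, a median of 10.1 CPM and 28.9 CPM in the highest of the 6 libraries at 28 months, against 5.5, 6.02, 5.52 and 6.11 CPM at 6 months. The 2 ages did not overlap for Mcm6 (log2 fold change 1.23 ± 0.27 SE, adjusted p 0.00125). Mcm4, its partner in the helicase, had 4.79 CPM, a median of 6.89 CPM and 17 CPM at 28 months, against 3.72, 4.57, 3 and 3.72 CPM at 6 months, again without overlap (1.21 ± 0.29, adjusted p 0.00249). Mcm3 had 3.9 CPM, a median of 5.38 CPM and 19.4 CPM at 28 months, against 3.62, 3.73, 2.91 and 2.33 CPM at 6 months, also without overlap (1.26 ± 0.33, adjusted p 0.00552). Tk1 had 2.18 CPM, a median of 4.01 CPM and 9.67 CPM, against 1.97, 2.31, 2.37 and 2.22 CPM, with overlap (1.07 ± 0.30, adjusted p 0.00928). Mcm5 overlapped between the ages: it had 1.01 CPM, a median of 3.55 CPM and 19 CPM at 28 months, against 0.625, 1.17, 0.689 and 1.33 CPM at 6 months (2.62 ± 0.64, adjusted p 0.00316). Mki67 had 0.103 CPM, a median of 8.56 CPM and 69.9 CPM at 28 months, against 0.362, 0.496, 0.21 and 1 CPM at 6 months (5.12 ± 1.37, adjusted p 0.00598). The 3 rich libraries held its 3 highest values, 69.9, 17 and 14.7 CPM, and of the other 3 libraries 1, at 2.42 CPM, lay above every 6-month value. That library was replicate 11, with the B cell precursor and T cell sums given above, whose part in the value was not tested. Top2a had the same shape, with 32.2, 9.34 and 8.45 CPM in the rich libraries and 1.91, 0.0531 and 0.0259 CPM in the others at 28 months, against 0.329, 0.744, 0.15 and 0.5 CPM at 6 months (4.30 ± 1.39, adjusted p 0.0227). Pcna had 18.3 CPM, a median of 27.2 CPM and 44.9 CPM at 28 months, against 30.4, 27.4, 24.6 and 30.4 CPM at 6 months, and did not pass.

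**Figure D3:**
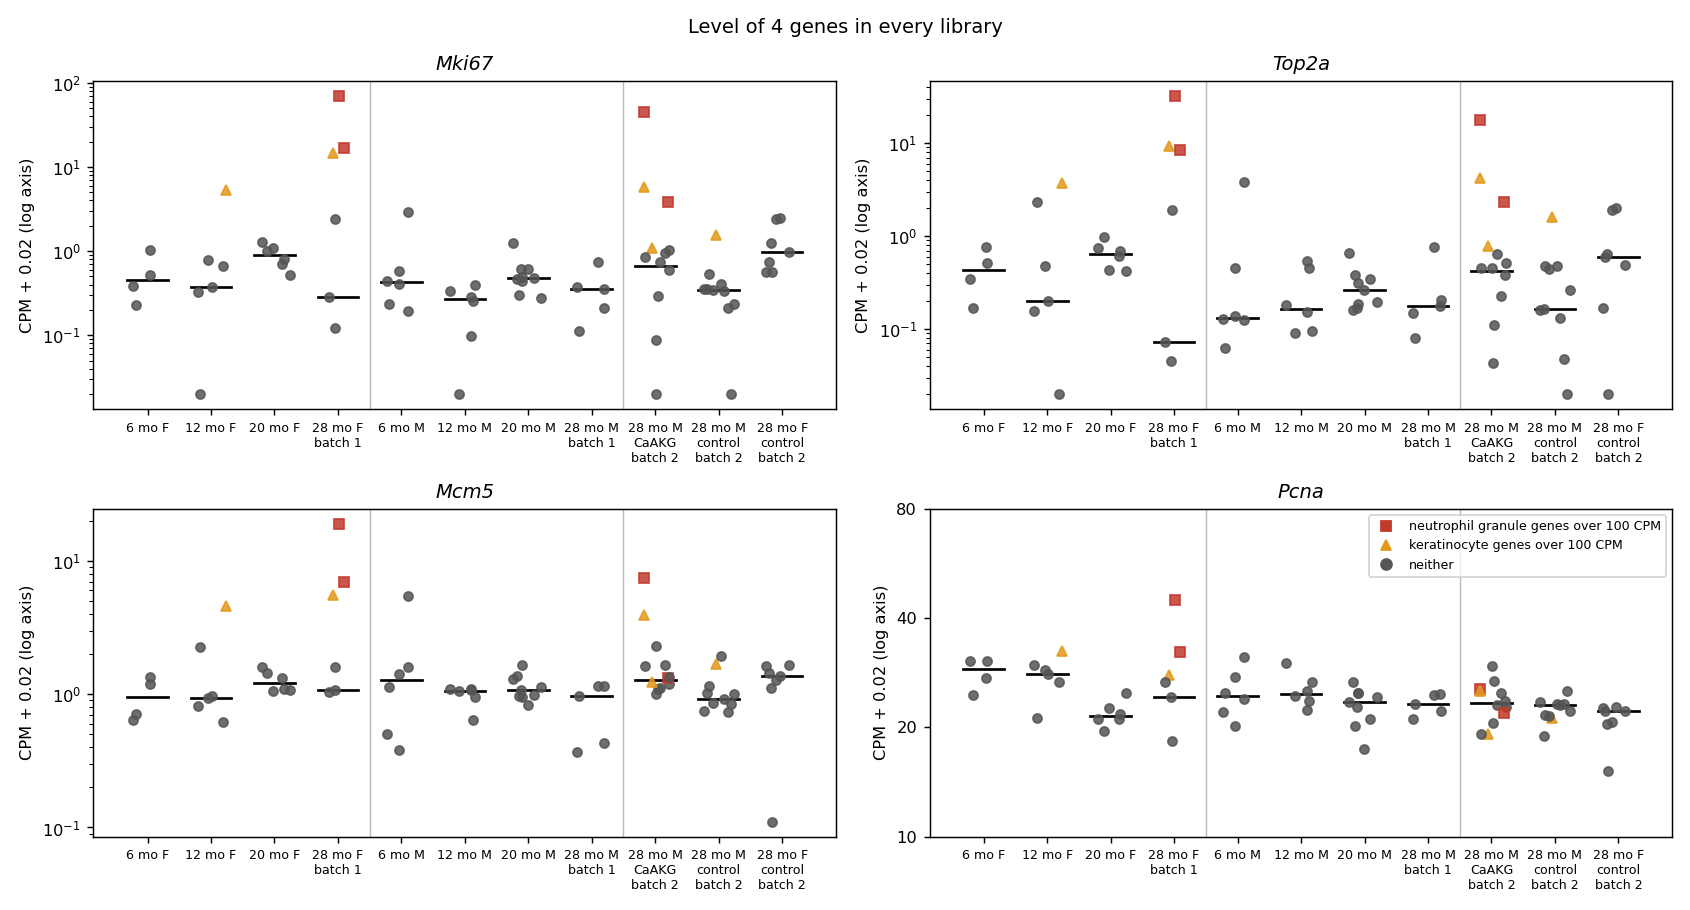
Level of Mki67, Top2a, Mcm5 and Pcna in every replicate, as CPM + 0.02 on a log axis, by group; each point is 1 replicate and the bar is the median of the replicates that are neither marrow- nor skin-rich. Mki67 reached 69.9 CPM in a marrow-rich library of the 28-month females, where Pcna reached 44.9 CPM.

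Without the 4 marrow-rich libraries, 3 of the 42 genes rose in females at 28 months, beside 7.99% of all genes. These were Mcm4 (log2 fold change 0.88 ± 0.29, adjusted p 0.0283), Mcm6 (0.87 ± 0.25, adjusted p 0.0139) and Mki67 (3.10 ± 1.10, adjusted p 0.0433). Without the skin-rich libraries as well, an alternative added after the data were seen, 3 females of 28 months stayed and 1 gene passed, beside 6.58% of all genes. It was Mcm6, with 9.82, 10.1 and 7.48 CPM in the 3 remaining females of 28 months, all above the 6.11 CPM that was highest at 6 months (0.71 ± 0.22, adjusted p 0.0313). With the libraries against their sex label left out as well, 0 genes passed in edgeR and 5 had an unadjusted p under 0.05. In the fit without marrow- and skin-rich libraries, the median log2 fold change of the 42 genes was 0.04, and Mki67 was at 0.92 ± 0.89 (adjusted p 0.558) and Mcm5 at 0.40 ± 0.52 (adjusted p 0.678). Leaving out replicate 10 of the 28-month females by itself left 4 genes, namely Mcm4, Mcm5, Mcm6 and Mki67. When the fit held only the 2 compared groups, 0 of the 41 genes still tested passed, beside 0 of all 15595 genes tested. An unadjusted p under 0.05 was found there for 22 of the 41 and for 3612 of all genes. With all groups in the fit but without the libraries against their sex label, 9 of the 42 passed.

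**Figure D4:**
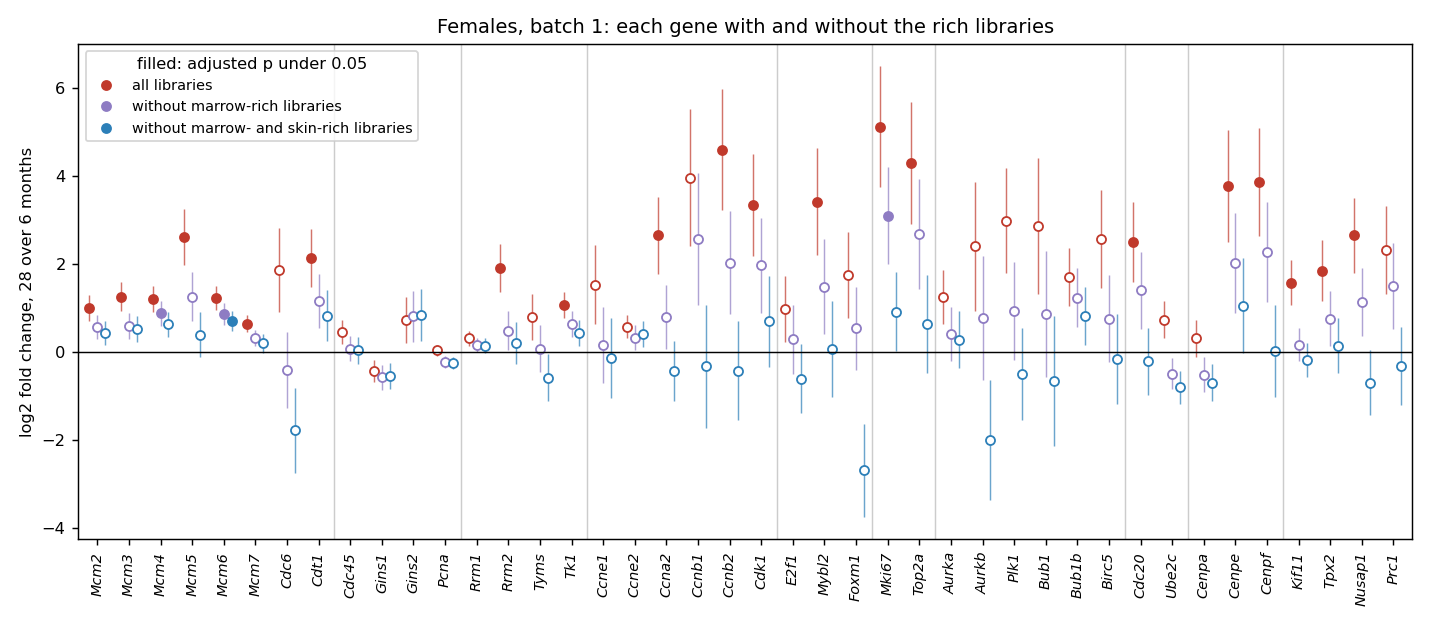
Log2 fold change of each of the 42 genes at 28 over 6 months in females of batch 1, with its standard error, for all libraries and after leaving out marrow-rich and then also skin-rich libraries; filled points passed an adjusted p under 0.05. With all libraries 21 points are filled, without marrow-rich libraries 3, and without both kinds 1.

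Other genes of the pathway were counted in the same fit with all libraries. Of 38 further replication genes 8 rose and 2 fell, with Lig1, the ligase that joins Okazaki fragments, at 1.88 ± 0.43 (adjusted p 0.0017), Dnmt1, which copies DNA methylation after replication, at 1.20 ± 0.32 (adjusted p 0.00552), and Gmnn, whose protein restrains Cdt1, at -1.14 ± 0.25 (adjusted p 0.00125). Of 44 further mitosis genes 12 rose and 1 fell, with the chromosomal passenger gene Incenp at 1.77 ± 0.43 (adjusted p 0.00256), the condensin gene Smc4 at 1.28 ± 0.31 (adjusted p 0.00265) and securin, Pttg1, at -0.55 ± 0.13 (adjusted p 0.00285). Of 26 regulators of the G1 phase 6 rose and 0 fell, among them Cdk6 (1.72 ± 0.41, adjusted p 0.00253), E2f2 (2.82 ± 0.72, adjusted p 0.00437) and E2f8 (3.32 ± 0.87, adjusted p 0.00512). Without marrow- and skin-rich libraries, 0 rose and 1 fell among the 36 further replication genes still tested, beside 4.5% of all genes lower, 0 passed among the 41 further mitosis genes (5 had an unadjusted p under 0.05), and 1 rose and 0 fell among the 26 regulators of G1.

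Promoter sequences are shown for the genes with the lowest p in females, Mcm6 and Mcm5 for 28 against 6 months (Mcm4, between them by p, is named only) and Ube2c, Tk1 and Mcm7 for 28 against 20 months. The windows are those of RefSeq on GRCm38.p6 and run from 250 bases before to 50 after the annotated start; 34 of the 42 genes had one. Capitals mark matches on either strand to TTTGGCGC or TTTCGCGC (letters of the E2F site), to TTTGAA (the cell cycle homology region, CHR) and to CCAAT (the CCAAT box). Mcm6 (chr1:128359656-128359955, minus strand) held 3 E2F matches, 2 of which overlap each other, and 2 CCAAT matches. Mcm5 (chr8:75109259-75109558, plus strand) held 2 overlapping E2F matches and 3 CCAAT matches. Ube2c (chr2:164769679-164769978, plus strand) held 1 CHR and 6 CCAAT matches. Tk1 (chr11:117825965-117826264, minus strand) held 0 matches of each kind. Mcm7 (chr5:138171834-138172133, minus strand) held 1 E2F match that overlaps 1 of 3 CCAAT matches.
Mcm6: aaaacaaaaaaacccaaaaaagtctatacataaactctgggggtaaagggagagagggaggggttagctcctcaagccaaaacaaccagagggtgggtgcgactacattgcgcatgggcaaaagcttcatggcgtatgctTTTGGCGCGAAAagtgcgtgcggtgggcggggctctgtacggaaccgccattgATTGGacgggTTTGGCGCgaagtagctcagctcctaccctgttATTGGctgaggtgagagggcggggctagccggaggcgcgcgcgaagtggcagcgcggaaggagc
Mcm5: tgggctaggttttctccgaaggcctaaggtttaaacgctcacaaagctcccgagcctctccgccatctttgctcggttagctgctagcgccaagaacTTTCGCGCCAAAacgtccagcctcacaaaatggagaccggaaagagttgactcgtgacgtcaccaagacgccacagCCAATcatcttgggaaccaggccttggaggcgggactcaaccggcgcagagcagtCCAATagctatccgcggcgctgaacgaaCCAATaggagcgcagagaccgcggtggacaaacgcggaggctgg
Ube2c: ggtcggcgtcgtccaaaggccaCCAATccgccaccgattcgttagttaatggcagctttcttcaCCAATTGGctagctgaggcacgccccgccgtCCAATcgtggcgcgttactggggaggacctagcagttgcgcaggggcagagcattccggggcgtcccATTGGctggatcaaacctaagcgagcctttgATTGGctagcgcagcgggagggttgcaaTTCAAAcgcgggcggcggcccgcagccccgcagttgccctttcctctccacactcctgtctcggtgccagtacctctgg
Tk1: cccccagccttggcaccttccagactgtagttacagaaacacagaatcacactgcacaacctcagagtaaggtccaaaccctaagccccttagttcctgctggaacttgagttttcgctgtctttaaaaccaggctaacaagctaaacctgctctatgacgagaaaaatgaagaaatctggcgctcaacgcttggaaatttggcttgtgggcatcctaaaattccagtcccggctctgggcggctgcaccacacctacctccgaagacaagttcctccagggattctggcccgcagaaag
Mcm7: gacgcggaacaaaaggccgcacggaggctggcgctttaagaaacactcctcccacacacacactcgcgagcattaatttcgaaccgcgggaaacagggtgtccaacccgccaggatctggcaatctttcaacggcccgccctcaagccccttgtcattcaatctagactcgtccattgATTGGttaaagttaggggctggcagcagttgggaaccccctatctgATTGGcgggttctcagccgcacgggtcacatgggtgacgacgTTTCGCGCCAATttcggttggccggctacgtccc
Among the 34 windows, 6 held the E2F letters (17.6%), against 0.833% of the windows of 27025 genes. The CHR letters were in 15 (44.1%), against 18.1% of all windows, and CCAAT in 25 (73.5%), against 37.9%. The 6 genes with E2F letters were Mcm3, Mcm5, Mcm6, Mcm7, Cdt1 and Cdk1, of which 5 are licensing genes. The 6 letters of CHR and the 5 of CCAAT are short and were common in all windows, and a match describes letters only.

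Between 28 and 20 months in females, 33 of the 42 genes rose and 0 fell with all libraries (edgeR quasi-likelihood test), beside 17.3% of all genes higher; the 28-month libraries are those of the comparison above, so the 2 comparisons are not independent. The median log2 fold change was 2.21. Ube2c, the ubiquitin-conjugating enzyme of the anaphase-promoting complex, had 1.22 CPM, a median of 2.84 CPM and 15.9 CPM at 28 months, against 0.59, 0.997 and 1.27 CPM at 20 months (2.36 ± 0.39, adjusted p 6.2e-06). Tk1, thymidine kinase, had 2.18 CPM, a median of 4.01 CPM and 9.67 CPM, against 1.17, 1.88 and 2.33 CPM at 20 months (1.36 ± 0.27, adjusted p 9.29e-05). Mcm7 had 8.11 CPM, a median of 14.1 CPM and 26.9 CPM, against 6.71, 8.2 and 8.29 CPM (0.88 ± 0.18, adjusted p 0.000173). All 3 genes overlapped between the ages at their edges, and their lowest values at 28 months lay in libraries that were neither marrow- nor skin-rich. Of the 42 genes 12 overlap a gene on the other strand, among them these 3. Tnnc2, opposite Ube2c, rose by 0.62 ± 0.18 (adjusted p 0.00817), as did Cops6, opposite Mcm7, by 0.33 ± 0.10 (adjusted p 0.0107), while Tk1 overlaps Afmid (0.30, adjusted p 0.543) and Gm20708. Further down by p, Rrm2, the small subunit of ribonucleotide reductase, had 1.11 CPM, a median of 3.85 CPM and 27.2 CPM at 28 months, against 1.08, 1.58 and 1.9 CPM at 20 months (2.22 ± 0.47, adjusted p 0.000303). Birc5, survivin, had 0.129 CPM, a median of 1.04 CPM and 10.1 CPM, against 0.0623, 0.109 and 0.127 CPM (4.54 ± 1.05, adjusted p 0.00077). Tpx2, a spindle assembly factor, had 0.807 CPM, a median of 2.51 CPM and 11.6 CPM, against 0.233, 0.65 and 0.888 CPM (2.57 ± 0.61, adjusted p 0.0011). Birc5 alone among these 3 did not overlap between the ages. Mki67 rose as well (4.31 ± 1.08, adjusted p 0.00189), with 0.495, 0.885 and 1.26 CPM as the lowest, median and highest at 20 months, and so did Top2a (3.79 ± 1.13, adjusted p 0.00833), with 0.399, 0.629 and 0.955 CPM at 20 months. Mcm5 had 1.04, 1.2 and 1.58 CPM at 20 months and rose by 2.23 ± 0.54 (adjusted p 0.00125), and Pcna had 19.5, 21.4 and 24.8 CPM at 20 months and rose by 0.41 ± 0.12 (adjusted p 0.00621).

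Without the marrow-rich libraries 6 genes rose at 28 against 20 months in females, beside 13.1% of all genes: Mcm7, Gins2, Tk1, Birc5, Ube2c and Tpx2. Without the skin-rich ones too, 2 rose, beside 12.9% of all genes. These were Tk1 (0.70 ± 0.26, adjusted p 0.0438) and Gins2, a subunit of the GINS complex (1.77 ± 0.53, adjusted p 0.0103). Over all 6 libraries of 28 months Gins2 had 5.27 CPM, a median of 8.84 CPM and 10.8 CPM, against 0.593, 2.17 and 6.5 CPM at 20 months. The 5.27 CPM was that of the marrow-rich replicate 12, which this fit left out. The highest value of Gins2 at 28 months lay in replicate 11, the library with the highest T cell sum. Its gene overlaps Gse1 on the other strand, and no strand setting is given, so reads of the overlap cannot be assigned to one gene with certainty. Gse1 had medians of 19.1 CPM at 28 months and 28.6 CPM at 20 months in females (log2 fold change -0.57 ± 0.29, adjusted p 0.132). Of the 38 further replication genes 18 rose and 0 fell with all libraries, and 4 rose and 1 fell of the 36 tested without both kinds of rich library. Among the lowest p were Pold2, a subunit of DNA polymerase delta (0.85 ± 0.14, adjusted p 4.24e-06), and Rfc2, a subunit of the clamp loader (0.67 ± 0.11, adjusted p 1.11e-05). Of 44 further mitosis genes 31 rose and 0 fell with all libraries, whereas 0 rose and 2 fell of the 41 tested without the rich ones, beside 10.6% of all genes lower.

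Between 20 and 6 months no library was marrow- or skin-rich. The shares of the 42 genes called were below those of all genes in each direction, at 4.76% higher and 7.14% lower in females and 4.76% higher and 16.7% lower in males. The endothelial marker sum moved with age here, at 408 to 554 CPM at 20 months against 98.3 to 278 CPM at 6 months in females, and 429 to 602 CPM against 72 to 156 CPM in males, and its part in these results was not tested. In females Mcm4 and Mcm6 rose, beside 18.2% of all genes higher, and Gins1, Pcna and Ube2c fell, beside 17.8% lower. Mcm6 had 7.8 CPM in the lowest, a median of 9.8 CPM and 11 CPM in the highest of the 6 libraries at 20 months, against 5.5, 6.02, 5.52 and 6.11 CPM at 6 months (0.74 ± 0.27, adjusted p 0.0228). Mcm4 had 5.62, 6.28 and 7.28 CPM at 20 months, against 3.72, 4.57, 3 and 3.72 CPM at 6 months (0.76 ± 0.28, adjusted p 0.0299). Neither gene overlapped between the ages. Mcm3, a further helicase subunit, had 4.57, 5.07 and 5.76 CPM at 20 months, against 3.62, 3.73, 2.91 and 2.33 CPM at 6 months, and did not pass (0.69 ± 0.33, adjusted p 0.0923). Gins1, which joins the helicase at the fork, had 1.53, 1.8 and 2.03 CPM at 20 months, against 3.26, 4.22, 2.79 and 3.22 CPM at 6 months (-0.92 ± 0.25, adjusted p 0.00214). Pcna had 19.5, 21.4 and 24.8 CPM, against 30.4, 27.4, 24.6 and 30.4 CPM (-0.37 ± 0.13, adjusted p 0.0203). Ube2c had 0.59, 0.997 and 1.27 CPM, against 2.63, 2.77, 2.79 and 3.89 CPM (-1.64 ± 0.41, adjusted p 0.000938). Gins1 and Ube2c were lower at 20 months in every library, and Pcna overlapped by a narrow margin. The falls of Gins1 and Ube2c held in all 10 fits that left out a library of these groups, whereas Pcna was lost without replicate 4 of the 6-month females. Mki67 had 0.495, 0.885 and 1.26 CPM at 20 months, against 0.362, 0.496, 0.21 and 1 CPM at 6 months, and neither it nor Top2a nor Mcm5 passed.

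In males of 20 months Mcm4 and Rrm1 rose, beside 22.6% of all genes higher, and 7 genes fell, beside 22% lower: Gins1, Gins2, Tk1, Mybl2, Bub1, Birc5 and Ube2c. Rrm1 had 18.4 CPM, a median of 22.4 CPM and 25.9 CPM at 20 months, against 14.5, 15.9 and 17.4 CPM at 6 months, without overlap (0.50 ± 0.13, adjusted p 0.000785). Mcm4 had 4.52, 5.73 and 8.15 CPM, against 1.66, 2.81 and 5.82 CPM (0.81 ± 0.23, adjusted p 0.00281). Gins1 had 0.959, 1.35 and 1.99 CPM, against 1.8, 2.35 and 2.85 CPM (-0.69 ± 0.21, adjusted p 0.00426), and Gins2 had 0.621, 2.87 and 4.87 CPM, against 3.3, 4.7 and 8.89 CPM (-1.15 ± 0.42, adjusted p 0.0187). The values of Mcm4, Gins1 and Gins2 overlapped between the ages. Mybl2, a transcription factor of the late cell cycle, had 0, 0.0967 and 0.141 CPM at 20 months, against 0.0976, 0.454 and 1 CPM at 6 months (-2.33 ± 0.87, adjusted p 0.0232). Bub1 rested on 6 counts in all at 20 months and 39 counts at 6 months (-3.46 ± 1.28, adjusted p 0.0214). Replicate 1 of the 6-month males had the highest summed level of its group, 159 CPM, and without it Gins2, Mybl2, Bub1 and Birc5 no longer passed, with Birc5 at -0.60 against -2.34 with all libraries. That replicate was under the limit for marrow-rich libraries but had the highest neutrophil granule sum of its group, 50.7 CPM (the other 5 had 0.414 to 10.8 CPM). Its macrophage sum was 182 CPM (the other 5 had 40.9 to 65.5 CPM), and the part of either in the result was not tested. Tk1 no longer passed without replicate 4 of the 6-month males, and Ube2c without replicate 2 at 20 months or replicate 2 or 5 at 6 months. Mki67 had 0.255, 0.462 and 1.22 CPM at 20 months, against 0.173, 0.407 and 2.88 CPM at 6 months in males, and did not pass. Top2a (0.141, 0.244 and 0.638 CPM at 20 months), Mcm5 (0.813, 1.05 and 1.64 CPM) and Pcna (17.4, 23.4 and 26.6 CPM) did not pass either.

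**Figure D5:**
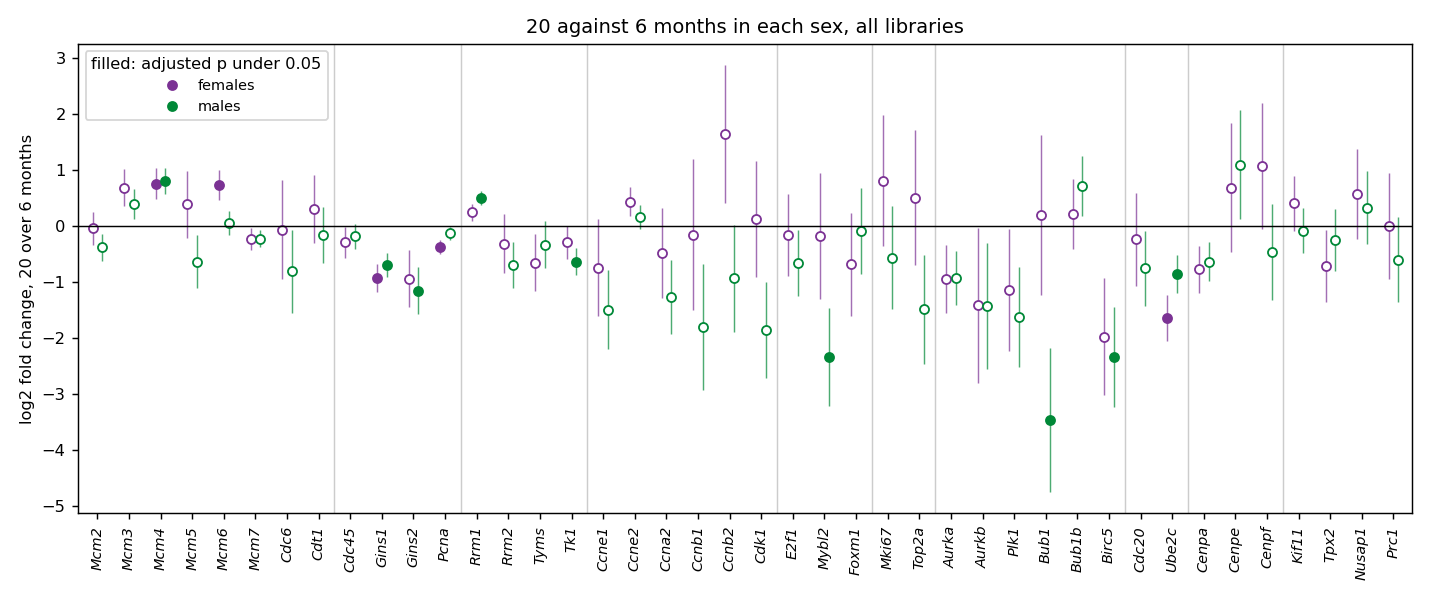
Log2 fold change of each of the 42 genes at 20 over 6 months in females and in males, with its standard error; filled points passed an adjusted p under 0.05. In both sexes Mcm4 lies above 0 and Gins1 and Ube2c lie below 0 with filled points, at 0.76, -0.92 and -1.64 in females and 0.81, -0.69 and -0.85 in males.

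Mcm4 rose, and Gins1 and Ube2c fell, in both sexes at 20 months. Ube2c lies on the strand opposite to Tnnc2, the troponin C of fast fibres, which fell at the same age by 1.24 ± 0.20 in females (adjusted p 8.07e-07) and by 0.96 ± 0.17 in males (adjusted p 1.4e-06). The median level of Tnnc2 was 1989 CPM at 20 months against 4602 CPM at 6 months in females, and 2895 CPM against 5419 CPM in males, so how many of the reads given to Ube2c belong to it was not tested. Gse1, opposite Gins2, rose by 1.67 ± 0.35 in females (adjusted p 5.83e-05) and by 1.51 ± 0.28 in males (adjusted p 5.4e-06). With offsets for transcript length and GC content, 931 of all 18218 genes were higher in females, against 3311 without offsets, and 1798 against 4118 in males. Genes lower numbered 2297 against 3251 in females and 3901 against 4010 in males. With these offsets Mcm4, Mcm6, Gins1 and Pcna no longer passed in females, nor did Gins1, Rrm1 and Ube2c in males. Rrm1 in males then turned to -0.10 ± 0.13 (adjusted p 0.608), while the other 6 calls lost kept their direction. Without the libraries against their sex label Mcm4 (0.65 ± 0.30, adjusted p 0.0921) and Mcm6 (0.70 ± 0.28, adjusted p 0.0502) no longer passed in females, nor without replicate 1 or 3 of the 6-month females, nor Mcm4 without replicate 4. Of 38 further replication genes 3 rose and 12 fell in females, and 3 rose and 9 fell in males. The 3 with the lowest p in females, and in males, were Rfc2 (-0.87 ± 0.13 in females and -0.73 ± 0.10 in males), Pold2 (-0.87 ± 0.15 and -0.78 ± 0.12) and Gmnn (-1.42 ± 0.25 and -1.47 ± 0.21). Of 26 regulators of G1, 8 rose and 3 fell in females, and 7 rose and 6 fell in males, with Cdk4, the kinase partner of D cyclins, at -0.79 ± 0.12 in females (adjusted p 9.95e-08) and -0.87 ± 0.10 in males (adjusted p 8.71e-12).

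In males of 28 months, 0 of the 42 genes passed against 6 months in edgeR or in DESeq2, beside 16.1% of all genes called in either direction in edgeR. Unadjusted p in edgeR was under 0.05 for 4 of the 42, beside 5172 of all 18218 genes. The median log2 fold change of the 42 was -0.38. Mki67 had 0.716, 0.19, 0.337, 0.0911 and 0.351 CPM at 28 months, against 0.173, 0.407 and 2.88 CPM as the lowest, median and highest at 6 months, and the groups overlapped. Top2a had 0.739, 0.158, 0.187, 0.0607 and 0.128 CPM, against 0.0432, 0.113 and 3.82 CPM. Mcm5 had 1.14, 1.14, 0.412, 0.941 and 0.351 CPM, against 0.358, 1.26 and 5.43 CPM (-1.11 ± 0.57, adjusted p 0.182). Pcna had 24.5, 24.7, 22.2, 23.2 and 21.1 CPM, against 20.2, 24.4 and 31.3 CPM. Tk1 had the lowest p, with 1.75, 2.21, 1.46, 1.82 and 2.23 CPM at 28 months, against 1.91, 3.12 and 4.36 CPM at 6 months (-0.68 ± 0.28, adjusted p 0.0888). No library of these groups was marrow- or skin-rich. With the rich libraries of other groups left out of the fit, which changes the estimate of the spread, 3 genes fell, beside 10.7% of all genes lower: Mcm2 (-0.66 ± 0.22, adjusted p 0.0244), Tk1 (-0.67 ± 0.23, adjusted p 0.0355) and Mybl2 (-2.58 ± 0.94, adjusted p 0.0431). Replicate 1 of the 6-month males, whose marker sums are given above, had the highest 6-month values of Mcm2 (239 counts) and Mybl2 (31 counts). It also held the 6-month maxima of Mki67, Top2a and Mcm5 given here. The part of this replicate in the falls was not tested. Against 20 months, males of 28 months had 0 of the 42 genes past the threshold in edgeR, beside 17% of all genes called. Unadjusted p in edgeR was under 0.05 for 3 of the 42, beside 5064 of all 18218 genes. DESeq2 gave 1 of the 42, Rrm1 at -0.33 ± 0.14 (adjusted p 0.0472), beside 14.9% of all genes lower.

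The change at 28 against 6 months was lower in males than in females for 3 genes (interaction term in edgeR, male change minus female change), beside 0.22% of all genes called in that direction. These were Mcm5 at -3.73 ± 0.85 (adjusted p 0.0292), Tk1 at -1.75 ± 0.41 (adjusted p 0.0341) and Mcm2 at -1.67 ± 0.41 (adjusted p 0.0484). In edgeR 0 genes passed when any 1 of 8 libraries was left out, namely replicate 10 of the 28-month females, replicate 13 or 14 of the 28-month males, each of the 4 females of 6 months, or replicate 1 of the 6-month males. Without the marrow-rich libraries 0 genes passed in edgeR, beside 0.0445% of all genes, while 8 of the 42 (19%) had an unadjusted p under 0.05, beside 11.2% of all genes, and Mcm5 was at -2.38 ± 0.74 (adjusted p 0.165). DESeq2 with all libraries gave 8 genes: the same 3, and Ccnb2, Cdk1, Mybl2, Mki67 and Top2a, beside 1.3% of all genes lower.

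At 12 months 0 genes passed against 6 months in either sex, in edgeR or in DESeq2 with all libraries, beside 0.231% of all genes called in females and 9.85% in males. An unadjusted p under 0.05 was found for 3 of the 42 genes in females, beside 14.5% of all genes, and for 0 in males, beside 23% of all genes. Rrm1 was the lowest by p in females, with 6.78, 12.9 and 15.4 CPM as the lowest, median and highest at 12 months, against 19, 18.3, 18.3 and 20.5 CPM at 6 months (-0.62 ± 0.15, adjusted p 0.0509). In females 1 gene, Rrm1, was lower in edgeR without the marrow-rich libraries (adjusted p 0.0484), beside 0.195% of all genes. Neither group held a marrow-rich library, so leaving them out changed the estimate of the spread. Rrm1 was lower again without marrow- and skin-rich libraries (-0.69 ± 0.16, adjusted p 0.0466), beside 0.067%. Yet 0 of the 42 passed without libraries against their sex label or without all doubted ones. Likewise 0 passed with length and GC offsets or with only the compared groups. The 2 ages did not overlap for Rrm1 in females; the lowest of the 12-month values came from replicate 1, which went against its sex label. Mki67 had 0, 0.497 and 5.29 CPM at 12 months, against 0.362, 0.496, 0.21 and 1 CPM at 6 months in females, with the highest value in the skin-rich replicate 5. Top2a had 0, 0.318 and 3.67 CPM, Mcm5 0.601, 0.931 and 4.53 CPM, and Pcna 21.2, 28.4 and 32.4 CPM at 12 months in females, each highest in the same library. In males of 12 months Mki67 had 0, 0.248 and 0.375 CPM, against 0.173, 0.407 and 2.88 CPM at 6 months. Top2a had 0.0707, 0.146 and 0.523 CPM, Mcm5 0.625, 1.04 and 1.08 CPM, and Pcna 22.3, 24.7 and 30.1 CPM in those males, and all 4 genes overlapped with 6 months.

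With CaAKG feed, 0 of the 42 genes passed in edgeR, beside 0.0659% of all genes called, although 18 had an unadjusted p under 0.05 (42.9%, beside 6.67% of all genes) and 41 had a log2 fold change above 0, with a median of 0.78. Mki67 had 0 CPM in the lowest, a median of 0.883 CPM and 45.6 CPM in the highest of the 12 CaAKG males, against 0, 0.33 and 1.53 CPM in the 10 control males (3.59 ± 0.81, adjusted p 0.0513). Its 3 highest values with CaAKG were 45.6 CPM in the marrow-rich replicate 7, 5.69 CPM in the skin-rich replicate 8 and 3.79 CPM in the marrow-rich replicate 6. The part of the marrow and skin transcripts in these values was not tested. Cdk1, the mitotic kinase, had 0, 0.228 and 3.52 CPM with CaAKG, against 0, 0.0604 and 0.141 CPM in control males (3.14 ± 0.78, adjusted p 0.111). The kinesin gene Cenpe had 0, 0.192 and 4.14 CPM, against 0, 0.0749 and 0.141 CPM (2.91 ± 0.79, adjusted p 0.194). Top2a had 0.0227, 0.469 and 17.8 CPM, against 0, 0.194 and 1.57 CPM (2.68 ± 0.83, adjusted p 0.311). Mcm5 had 0.976, 1.32 and 7.43 CPM, against 0.716, 0.936 and 1.91 CPM (0.96 ± 0.39, adjusted p 0.609). Pcna had 19.2, 23.3 and 29.5 CPM, against 18.9, 22.6 and 25.2 CPM (0.07 ± 0.09, adjusted p 0.993). All 6 genes overlapped between the feeds.

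DESeq2 called 3 genes higher with CaAKG: Mki67 (3.63 ± 0.73, adjusted p 0.00127), Cdk1 (3.22 ± 0.72, adjusted p 0.013) and Cenpe (2.98 ± 0.74, adjusted p 0.0415), beside 0.161% of all genes higher. Without the marrow-rich libraries 0 genes passed in edgeR, 3 had an unadjusted p under 0.05, and the median log2 fold change was 0.21, beside 0% of all genes called. Without skin-rich ones too, the median was 0.09, 1 gene (Aurkb, the kinase of the chromosomal passenger complex) had an unadjusted p under 0.05, and Mki67 was at 0.90 ± 0.58 (adjusted p 1). Of the further lists 0 genes passed with CaAKG in edgeR, with unadjusted p under 0.05 in 6 of 38 replication genes, 17 of 44 mitosis genes and 3 of 26 regulators of G1.

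Among control mice of 28 months in batch 2, 1 library was skin-rich and none marrow-rich. Between males and females 0 of the 42 genes passed in edgeR or DESeq2, beside 1.3% of all genes called in edgeR. Unadjusted p in edgeR was under 0.05 for 2 of the 42, beside 2529 of all 18218 genes. The median log2 fold change of the 42, male over female, was -0.33. Cdk1 had 0 CPM, a median of 0.0604 CPM and 0.141 CPM in males, against 0, 0.346 and 0.732 CPM in females (-2.36 ± 0.83, adjusted p 0.15). Mki67 had 0, 0.33 and 1.53 CPM in males, against 0.542, 0.964 and 2.44 CPM in females (-1.59 ± 0.84, adjusted p 0.396). The highest male value of Mki67 was that of the skin-rich replicate 4, and the other 9 males lay below every female, at no more than 0.509 CPM. Without rich libraries Mki67 was lower in males at -2.11 ± 0.59 (adjusted p 0.0458), 1 gene of the 42, beside 1.71% of all genes. Marker sums of other cells moved with sex, with medians of 36.8 CPM in males and 65 CPM in females for satellite cells, 352 CPM and 487 CPM for endothelium, and 66.7 CPM and 95.8 CPM for macrophages. The ranges of all 3 overlapped between the sexes, and their part in the result was not tested. Top2a had 0, 0.194 and 1.57 CPM in males, against 0, 0.575 and 1.98 CPM in females, Mcm5 had 0.716, 0.936 and 1.91 CPM, against 0.0904, 1.34 and 1.63 CPM, and Pcna had 18.9, 22.6 and 25.2 CPM, against 15.1, 22.1 and 22.8 CPM. These 3 overlapped between the sexes. Of the regulators of G1, Cdkn1a, the p21 inhibitor of cyclin-dependent kinases, was lower in males at -1.40 ± 0.33 (adjusted p 0.0119).

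By group, the summed level of the 42 genes was compared with the scaling factors applied and without the rich libraries. Pcna (median 23.2 CPM) and Rrm1 (19.6 CPM) weigh most in this sum, and Mki67 (0.421 CPM) and Top2a (0.271 CPM) weigh little. The sum therefore says little about the scarce mitotic genes. The batch 1 females of 28 months had a lowest value of 117 CPM and a median of 120.2 CPM (3 libraries), those of 20 months 103 to 117 CPM (6 libraries), those of 12 months 97.7 to 109 CPM (5 libraries) and those of 6 months 105 to 122 CPM (4 libraries). Batch 1 males had medians of 101 CPM at 28 months, 103 CPM at 20 months, 109.8 CPM at 12 months and 102 CPM at 6 months. Their ranges were 97 to 109.7 CPM, 97.9 to 108 CPM, 102 to 119 CPM and 92.1 to 171 CPM in that order. The 171 CPM was that of replicate 1 of the 6-month males. In batch 2 the CaAKG males had 99.8 to 119 CPM, the control males 97.2 to 112 CPM and the control females 102 to 133 CPM. In batch 1 the range at each later age overlapped with the 6-month range of the same sex. The CaAKG range overlapped with that of its control males.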

How the data were processed

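Soleus RNA was sequenced on an Illumina NovaSeq instrument as paired reads, per the labels' protocols. The authors deposited 1 table of expected counts per gene, and per the submitters' processing notes STAR 2.7.11b, RSEM 1.3.3, FastQC and mm10 were used; the strand setting is not given in the sources used here. Of 133 columns 78 matched a sample's labels, and the other 55 were not used. Of all values 8.99% were not whole (tolerance 1e-06), and they were rounded. The 2 libraries of 12-month females with 1 animal tag were summed, which left 77 replicates of 11 groups. Where no label ties replicates to separate animals, p-values measure only the spread between these samples.

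Genes were filtered with filterByExpr (minimum count 10, minimum total 15), which left 18218. They were fitted in 1 model with edgeR 4.0.16 in R 4.3.3 (TMM, quasi-likelihood test, Benjamini-Hochberg adjustment over all genes, threshold 0.05), with errors as SE. DESeq2 1.42.0 was an alternative, beside other scalings, filters, sets of libraries, offsets and a replicate block. Same-numbered samples did not pair: correlations of their deviations ran from -0.176 to 0.173. Up to 6 genes with the lowest p in a comparison, and Mki67, Top2a, Mcm5 and Pcna, were named with their values, and of other lists up to 3. The 42 genes and all lists were chosen with earlier results of these data known. The fit was tested on simulated data.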

Additional observations from a re-analysis of the deposited data

Results flagged for a closer look

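The summed level of the 42 genes, in CPM of the library total, was far from the rest of its group in 4 libraries: 736 CPM in replicate 10 of the 28-month females of batch 1, 235 CPM in replicate 5 of the 12-month females, 159 CPM in replicate 1 of the 6-month males, and, as a low value, 93.1 CPM in replicate 3 of the 6-month females. Chance marks about 1 in 20 groups by this measure. The first of these libraries was marrow-rich, the second skin-rich, and the last went against its sex label.

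The change between 28 and 6 months differed between the sexes by an interaction term in edgeR for 3 genes, male change minus female change. It was -3.73 for Mcm5, -1.75 for Tk1 and -1.67 for Mcm2 on the log2 scale, and 0 of the 3 passed without the marrow-rich libraries.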

How the results depend on the processing

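Calls over all genes moved between fits as well. For 28 against 6 months in females, 1805 of 18218 genes were higher with all libraries. With length and GC offsets 552 were higher, and with only the compared groups 0 of 15595. For 28 against 20 months in females, 3155 of 18218 were higher, and 2163 of 15287 with only the compared groups. For the interaction, 40 of 18218 were lower, and 0 of 16293 with only the compared groups. Counts of the 42 genes called moved as follows, both directions together. Shares of all genes in most of these fits are not given beside them, so the counts describe the fits, not the 42 genes. For 28 against 6 months in females (21), 3 were called without marrow-rich libraries, 22 without skin-rich ones and 1 without both kinds. There were 9 without those against their sex label and 0 without all doubted libraries. Length and GC offsets gave 11, and DESeq2 gave 26. With only the compared groups 0 of the 41 still tested were called, and leaving out 1 replicate gave 4 to 25. For 28 against 20 months in females (33), 6 were called without marrow-rich libraries, 33 without skin-rich ones and 2 without both kinds. There were 34 without those against their sex label and 2 without all doubted libraries. Length and GC offsets gave 26, and DESeq2 gave 35. With only the compared groups 18 of the 36 still tested were called, and leaving out 1 replicate gave 12 to 36. For 20 against 6 months in females (5), 3 were called without sex mismatches and 1 with offsets. With only the compared groups 9 of the 35 still tested were called, and leave-outs gave 3 to 6. In males (9, with 2 higher and 7 lower), 16 were called without all doubted libraries, 2 higher and 14 lower. With all libraries 22.6% of all genes were higher and 22% lower in that comparison. Leave-outs gave 6 to 10 of the 42. For 28 against 6 months in males (0), 1 was called without sex mismatches, 5 without all doubted libraries and 1 with offsets; leave-outs gave 0 to 1. For 28 against 20 months in males (0), 3 were called without all doubted libraries and 1 in DESeq2. With only the compared groups 2 of the 33 still tested were called, and leave-outs gave 0 to 1. For 12 against 6 months (0), 1 was called in females with the tagged libraries apart and 3 in males without all doubted libraries; leave-outs gave 0 to 1 in females and 0 in males. With CaAKG (0), 1 was called with no filter, 1 without skin-rich libraries, 1 with offsets and 3 in DESeq2; leave-outs gave 0 to 3. Between males and females (0), 2 were called without all doubted libraries, and leave-outs gave 0. For the interaction (3), 1 was called with no filter, 0 without marrow-rich, 5 without skin-rich, 0 without all doubted, 0 without marrow- and skin-rich libraries, 0 with only the compared groups and 8 in DESeq2; leave-outs gave 0 to 5. With the replicate block, 8 were called for 20 against 6 months in females and 7 in males. The cause of these moves was not tested, beyond fewer libraries or groups in the fit. Genes under 1 CPM rest on few counts.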

Other observations

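The 2 libraries of 12-month females that carry 1 animal tag, summed above, differed from each other. The library labelled replicate 6 (30.7 times 1000000 counts) had an unscaled summed level of 121 CPM for the 42 genes, 176 CPM for keratinocyte genes and 155 CPM for macrophage genes. The library labelled replicate 7 (81.6 times 1000000 counts) had 93.5 CPM, 7.26 CPM and 79.1 CPM for the same 3 lists. The first of these libraries passed the keratinocyte limit of 100 CPM by itself. Their sum, at 53.5 CPM, did not, and it stayed in the fits without skin-rich libraries.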
